A study of Mus musculus with 15 samples.

Results

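Anti-PD1 given alone was compared with placebo in 7 of the 15 sequenced samples of a mouse glioma, 4 of them treated with the antibody and 3 with placebo. The 7 libraries were chosen by their labels only. All samples came from nestin-TVA mice (spelled nesin-TVA in the series' text) that had received chicken DF-1 cells carrying R132H-mutant IDH mixed in equal parts with DF-1 cells carrying the growth factor PDGFB. The cells were placed 2 mm left of bregma and 3 mm deep. After MRI on day 28 the mice were assigned at random and treated over 9 days, and tissue was collected on day 37, so placebo mice also carried mutant IDH and PDGFB. Anti-PD1 was given into the peritoneum at 1 mg per 100 µl in PBS on 2 occasions a week. Placebo was a daily injection of 100 µl of 10% DMSO, 45% PEG-300 and 5% Tween-20 in water. The labels state neither an isotype antibody for the placebo mice nor the DMSO vehicle for the anti-PD1 mice, so the antibody and the vehicle schedule cannot be told apart. The labels give no age, sex or tumour size, and they do not say that each library is a separate mouse, so the p-values measure the spread between these samples. The other libraries (4 vorinostat, 4 combination) served here to estimate the spread and as levels set beside the comparison.

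PD-1 is an inhibitory receptor of activated T cells, and antibodies that block it release those cells from the brake set by its ligand PD-L1. T cells see peptides on MHC molecules. Class I heavy chains, paired with beta-2 microglobulin, present peptides to CD8 T cells, and class II molecules present them to CD4 T cells. In the forebrain the striatum consists mostly of GABA-releasing projection neurons. Those of the direct pathway make the D1 dopamine receptor, substance P and dynorphin, and those of the indirect pathway make the D2 receptor, an adenosine receptor (Adora2a) and enkephalin.

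With anti-PD1, 6 of 14 class I genes (heavy chains and B2m) rose, where 5.29% of all genes were called in either direction. The 21 T cell markers summed to more TPM in every anti-PD1 library than in any placebo library. Of 23 tested genes of striatal projection neurons 15 rose, led by the enkephalin precursor gene Penk. Genes of mitosis and DNA replication lay lower, with all 59 tested members below 0 and 6 past the test. The matrix genes Lum, Dcn and Col3a1 fell, as did Spp1, which encodes osteopontin. In all, 344 of 19390 genes tested rose (1.77%) and 682 fell (3.52%) at an adjusted p under 0.05 in limma. This test compares group means of log2(TPM + 1). Of 12944 protein-coding genes tested 266 rose and 292 fell, while of 2862 pseudogenes 15 rose and 300 fell. The shares of all genes set beside the gene lists include these pseudogenes. TPM, the deposited unit, is the abundance of a transcript scaled to its length and to the library's total. In bulk samples more or fewer cells of a type and more or less RNA per cell cannot be told apart. The median change of all genes was -0.14 on that scale. The number of calls moved with each library left out. Without placebo library 1, 2 or 3 it was 0, 2 or 11, and without anti-PD1 library 3 it was 4982, while the change of Penk stayed between 2.80 and 3.29 as single placebo or anti-PD1 libraries were left out.

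The libraries held between 87275654 and 161122433 recovered reads. The labelled tissue carried its defining markers in every library. The glioma transcription factor gene Olig2 stood at 707 to 1126 TPM with placebo and 214 to 795 with anti-PD1, the growth factor receptor gene Pdgfra at 283 to 380 and 69.4 to 337, and the astrocyte filament gene Gfap at 492 to 772 and 260 to 547. Anti-PD1 library 2 held the lowest summed level of the 23 progenitor and glioma lineage genes, 2403 TPM, against 4856 to 7946 in the other anti-PD1 libraries and 6702 to 9773 with placebo. Haemoglobin and other erythrocyte genes summed to 33121 TPM in anti-PD1 library 1 and 12374 in library 2, against 561 to 6434 with placebo. Neutrophil genes summed to 184 and 44.5 TPM in those libraries and to 12.4 to 14.3 in the other 5. The 10 most abundant symbols, 7 of them pseudogenes on chromosome 1, took 24.5% to 39.5% of the TPM with anti-PD1 and 22% to 27.5% with placebo. With median-of-ratios scaling the median of all genes was 0.01, and 62.1% of the calls were higher, against 33.5% without it.

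**Figure D1:**
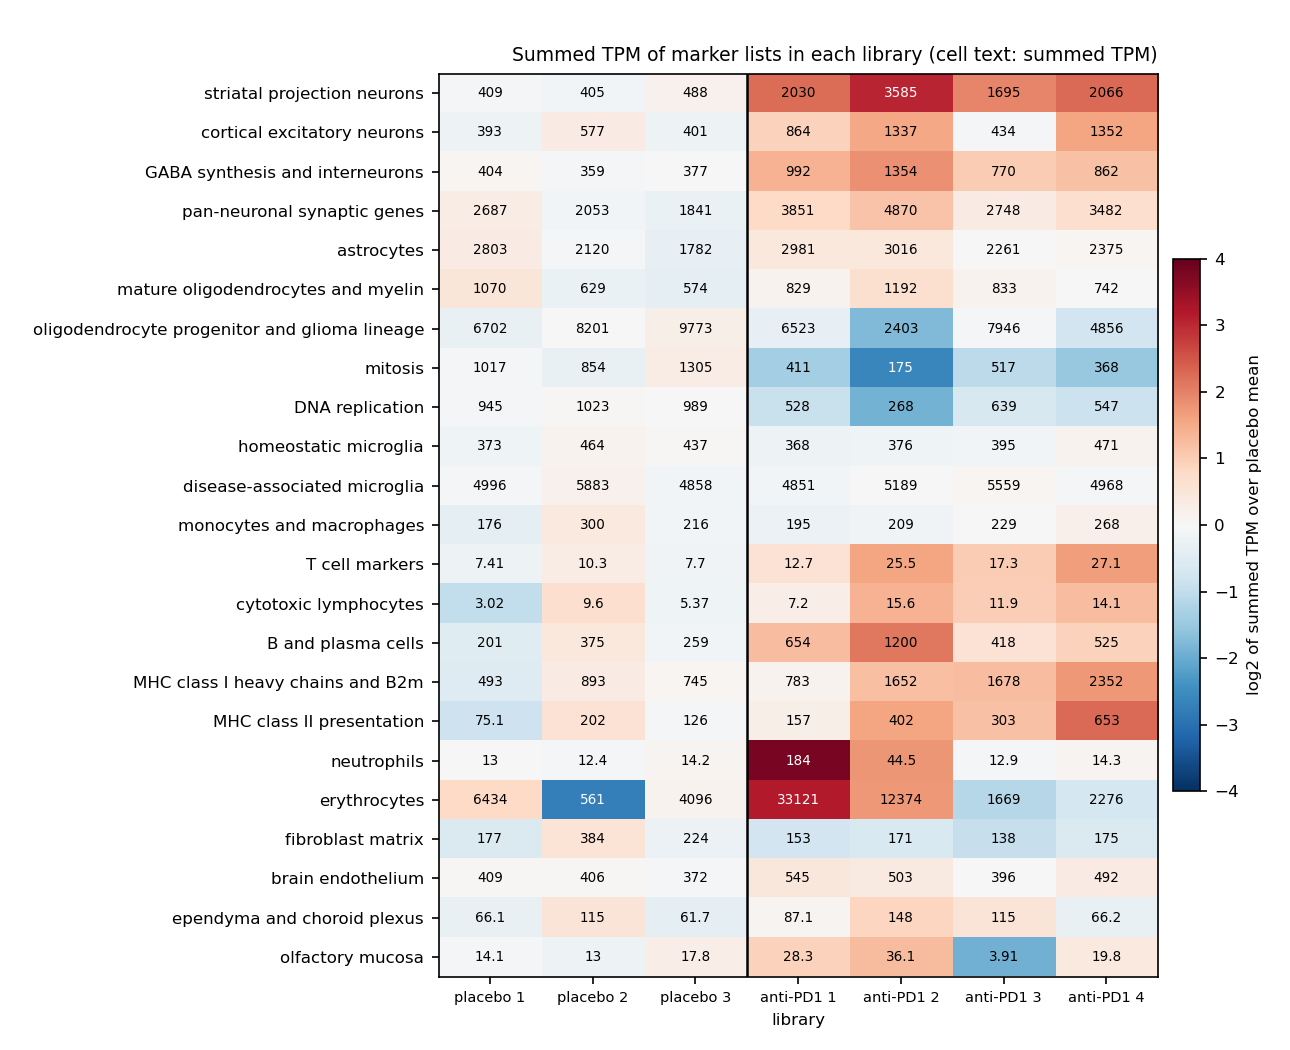
Summed TPM of 23 marker lists (rows) in the 3 placebo and 4 anti-PD1 libraries (columns); colour is the log2 ratio to the placebo mean, from -4 in blue to 4 in red. Striatal genes summed to 405 to 488 TPM with placebo and 1695 to 3585 with anti-PD1, while mitosis genes summed to 854 to 1305 and 175 to 517.

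The first question was whether the axis that the antibody acts on and the immune genes around it stood at other levels after treatment. Pdcd1, which encodes PD-1 itself, was at 0.966, 1.67 and 1.47 TPM in placebo libraries 1 to 3 and at 0.502, 0.409, 0.788 and 1.01 TPM in anti-PD1 libraries 1 to 4. Anti-PD1 library 4 lay within the placebo range and the other 3 below it. Its change of -0.50 (SE 0.20) did not pass in limma (adjusted p = 0.111), and since the antibody binds the protein, this level does not check the treatment. Cd274, the gene of the ligand PD-L1, was at 1.04, 2.05 and 1.38 TPM with placebo and at 1.39, 3.11, 2.65 and 4.84 TPM with anti-PD1. The groups overlapped through anti-PD1 library 1, and the change of 0.63 did not pass (SE 0.26, adjusted p = 0.116 in limma). Of 9 tested checkpoint receptors and ligands 0 passed, with a median change of -0.23.

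Of the 14 class I genes, the heavy chains and their light chain gene B2m, 6 rose (42.9%, against 1.77% of all genes), 0 fell, and the median change was 0.94 against -0.14 for all genes. H2-D1 (chromosome 17, 35262730 to 35267499, mm10), one of the classical molecules that display peptides on nearly all cells, had 201, 381 and 311 TPM in placebo libraries 1 to 3 and 360, 847, 864 and 1157 TPM in anti-PD1 libraries 1 to 4. Libraries 2, 3 and 4 of the treated group lay above every placebo library, and library 1 lay within the placebo range. H2-D1 rose by 1.37 (SE 0.34, adjusted p = 0.0441 in limma). H2-K1, the other classical gene, also had treated library 1 within the placebo range and library 4 highest, with 33.0, 74.6 and 65.3 TPM against 69.8, 162, 146 and 250 TPM. Its change was also 1.37, but with an SE of 0.40 it missed the threshold (adjusted p = 0.0558 in limma). B2m, the gene of their shared light chain, had 172, 323 and 263 TPM with placebo and 238, 432, 453 and 656 TPM with anti-PD1. The groups overlapped and the change of 0.77 did not pass in limma (SE 0.28, adjusted p = 0.0864).

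Outside the classical pair, H2-Q7 (chromosome 17, 35439155 to 35443773) had 1.27, 3.10 and 3.07 TPM with placebo and 4.58, 13.5, 13.8 and 27.2 TPM with anti-PD1. H2-Q6, its neighbour, had 0.875, 2.4 and 1.81 TPM against 3.03, 10.6, 8.53 and 16.7 TPM. For both genes all anti-PD1 libraries lay above all placebo libraries, library 4 highest and library 1 lowest. H2-Q7 rose by 2.02 (SE 0.47, adjusted p = 0.0376) and H2-Q6 by 1.85 (SE 0.43, adjusted p = 0.0367), both in limma. Their longest coding transcripts are 85.0% identical over 1284 aligned bases, so the split of reads between them is uncertain, and the same holds for H2-K1 and H2-D1 (88.2% over 1513 bases). H2-M3, which presents formylated peptides, had 4.90, 6.49 and 6.47 TPM with placebo and 9.12, 8.29, 10.7 and 10.9 TPM with anti-PD1, and H2-T22, a ligand of some gamma-delta T cells, had 17.7, 18.4 and 19.3 against 21.4, 23.7, 24.4 and 28.3 TPM. Neither gene's groups overlapped, and the rises were 0.63 (adjusted p = 0.044) and 0.38 (adjusted p = 0.0421) in limma. H2-T23, the mouse Qa-1 gene, rose by 1.11 (SE 0.28) from 7.55 ± 1.64 TPM (SD, n = 3) to 17.8 ± 4.83 (SD, n = 4). The remaining members not yet given had changes from -0.06 (H2-T24) to 1.81 (H2-Q4), and none of them passed.

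The windows around the start sites of 4 genes that rose are shown because they carry a short element known from class I or interferon-responsive promoters (RefSeq, GRCm38.p6, strand of the gene, 250 bases before to 50 after the annotated start). Capitals mark GGGGATTCC, letters of a kappa B site that NF-kappa B binds, in the first pair. In the second pair they mark GAAANNGAA, a core of the interferon-stimulated response element, which lies on the opposite strand in both and so is printed as its reverse complement. H2-D1 is chr17:35262844-35263143 (plus strand), H2-Q7 chr17:35438905-35439204 (plus), H2-T22 chr17:36042693-36042992 (minus) and Gbp2 chr3:142620413-142620712 (plus).
H2-D1: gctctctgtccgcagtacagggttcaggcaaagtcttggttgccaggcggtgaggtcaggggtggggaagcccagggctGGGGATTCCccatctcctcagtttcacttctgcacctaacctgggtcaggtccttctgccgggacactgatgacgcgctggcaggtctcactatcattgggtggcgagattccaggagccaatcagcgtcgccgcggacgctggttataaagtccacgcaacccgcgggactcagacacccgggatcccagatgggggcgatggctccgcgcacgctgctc
H2-Q7: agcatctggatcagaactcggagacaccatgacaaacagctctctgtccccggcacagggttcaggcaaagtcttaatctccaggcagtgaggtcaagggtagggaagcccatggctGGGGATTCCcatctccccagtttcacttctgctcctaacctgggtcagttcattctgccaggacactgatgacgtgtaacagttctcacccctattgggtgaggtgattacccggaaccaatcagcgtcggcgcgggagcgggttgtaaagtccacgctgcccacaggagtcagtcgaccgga
H2-T22: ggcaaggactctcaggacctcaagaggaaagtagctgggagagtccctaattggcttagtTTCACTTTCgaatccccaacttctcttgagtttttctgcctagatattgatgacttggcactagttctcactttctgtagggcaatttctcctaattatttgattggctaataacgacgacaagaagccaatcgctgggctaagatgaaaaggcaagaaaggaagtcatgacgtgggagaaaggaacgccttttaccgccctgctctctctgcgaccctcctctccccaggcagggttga
Gbp2: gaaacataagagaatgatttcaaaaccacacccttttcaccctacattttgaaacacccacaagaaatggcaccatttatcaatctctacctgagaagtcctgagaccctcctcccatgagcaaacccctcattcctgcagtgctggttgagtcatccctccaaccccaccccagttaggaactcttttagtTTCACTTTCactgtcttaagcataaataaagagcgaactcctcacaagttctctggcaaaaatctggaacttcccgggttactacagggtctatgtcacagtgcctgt

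Searched on both strands, the kappa B letters were found in 4 of the 11 class I list genes with a window (H2-D1, H2-K1, H2-Q6 and H2-Q7) and in 0.25% of all 32851 windows. In H2-D1 they begin 171 bases before the RefSeq start, in H2-Q7 133 bases before its own. The windows of these 4 genes are alike, so the matches are not independent. Identity was 97.3% between H2-Q6 and H2-Q7, 90.4% between H2-K1 and H2-D1 and 82.9% between H2-Q7 and H2-D1. The 11 are genes, and H2-K1 has 2 windows, while the 0.25% is a share of windows. The H2-D1 gene interval given above, from GENCODE, begins upstream of the printed window, so by that annotation the letters lie inside the gene. The interferon element core in the form GAAANNGAA was found in 3 of these 11 genes, in 16 of 22 interferon response genes with a window and in 8.56% of all windows. It begins 190 bases before the start of H2-T22 and 58 before that of Gbp2. Only this order of the letters was searched. The windows of H2-D1, H2-K1, H2-Q6 and H2-Q7 hold tttcacttc downstream of the kappa B letters. On the opposite strand those bases read GAA before GAAA, the other order, and were not counted. A window without the searched form may thus still hold an interferon element. Another motif, the gamma-activated site TTCNNNGAA, was found in 1 of the 11, 10 of the 22 and 8.3% of all windows. These motifs were searched as letters alone, a match is a description, and whether a factor binds there was not measured. Of the genes with the kappa B letters, H2-D1, H2-Q6 and H2-Q7 rose and H2-K1 did not pass.

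Of 14 tested peptide loading and immunoproteasome genes 0 passed, and their median change was 0.17. Nlrc5, the transactivator of class I genes, had 0.11, 0.268 and 0.220 TPM with placebo and 0.333, 1.05, 0.921 and 1.95 TPM with anti-PD1. All anti-PD1 libraries lay above all placebo libraries, but the change of 0.73 did not pass in limma (SE 0.24, adjusted p = 0.0715). Psmb9, an immunoproteasome subunit, was at 2.4, 4.98 and 3.45 TPM against 3.28, 13.4, 8.98 and 17.2 TPM, with anti-PD1 library 1 inside the placebo range. Canx, a chaperone of new class I chains, had a difference of -0.46 and missed the threshold.

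Class II genes showed the same spread among the treated libraries. Cd74, the invariant chain gene, had 14, 57.1 and 28.5 TPM with placebo and 54.8, 183, 123 and 304 TPM with anti-PD1, and H2-Ab1 had 2.12, 10.4 and 5.97 against 10.3, 30.8, 23.9 and 54.5 TPM. In both genes anti-PD1 library 1 lay just under placebo library 2, and the other 3 lay above all placebo libraries. Changes of 2.25 and 2.08 did not pass in limma (adjusted p = 0.0579 and 0.0602), and 0 of 10 class II genes passed, with a median of 0.51. Of 29 tested interferon response genes 1 rose (3.45%, against 1.77% of all genes), with a median of 0.27. This was Gbp2, an interferon-induced GTPase gene, at 2.14, 4.08 and 3.41 TPM with placebo and 4.43, 8, 8.02 and 10.8 TPM with anti-PD1. The groups did not overlap, and Gbp2 rose by 1.04 (SE 0.28, adjusted p = 0.0486 in limma). Igtp, another GTPase gene induced by interferon gamma, had 3.66, 8.05 and 7.83 TPM against 8.31, 30, 28.0 and 55.8 TPM, and its difference of 1.87 missed the threshold (SE 0.54, adjusted p = 0.0561 in limma). The classical type I response genes Isg15, Ifit1 and Rsad2 had changes of 0.45, 0.23 and 0.08.

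Lymphocyte genes were scarce in all 7 libraries. The 21 T cell markers together summed to 7.41, 10.3 and 7.70 TPM in placebo libraries 1 to 3 and to 12.7, 25.5, 17.3 and 27.1 TPM in anti-PD1 libraries 1 to 4, all above placebo. The 14 markers below the filter of 1 TPM in 3 libraries had sums of 1.08, 2.01 and 1.2 TPM against 2.27, 4.47, 3.81 and 5.39 TPM, the same order between groups. Cd4, the helper T cell coreceptor gene that some mouse dendritic cells also express, was at 0.802, 0.718 and 1.04 TPM with placebo and 3.27, 8.52, 2.86 and 6.06 TPM with anti-PD1. No anti-PD1 library came near the placebo range, and the rise was 1.64 (SE 0.42, adjusted p = 0.0459 in limma). Lat, an adaptor of T cell receptor signalling, rose by 0.63 (adjusted p = 0.0376 in limma) from a range of 0.447 to 0.535 TPM to one of 1.04 to 1.62. Lat met the filter through libraries given the antibody. Trbc2, a constant gene of the T cell receptor, had 2.29, 4.03 and 3.21 TPM against 2.86, 4.53, 5.35 and 7.31 TPM, and its change of 0.49 did not pass in limma (SE 0.30, adjusted p = 0.253).

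For the rarest transcripts the recovered reads show what the TPM rest on. Cd8a, the killer T cell coreceptor gene, had 0, 0 and 28 reads with placebo and 53, 67, 81 and 140 with anti-PD1. Cd3g, a subunit of the T cell receptor complex, had 10, 12 and 15 reads against 30, 68, 85 and 99. Both had more reads in every anti-PD1 library than in any placebo library, although placebo library 3 was the deepest of the 7. The difference for Cd8a was 1.05 and missed the threshold in limma (SE 0.32, adjusted p = 0.0602), and Cd3g lay below the filter and was not tested. Cd3e, another subunit, did not follow, with 21, 70 and 17 reads against 0, 33, 86 and 102. Gzmb (chromosome 14, 56258838 to 56262260) had 0, 0 and 4 reads with placebo and 45, 18, 63 and 43 with anti-PD1. It rose by 1.00 (SE 0.22, adjusted p = 0.0326 in limma). However, it and Cd8a entered the test only through libraries given the antibody, so the call of Gzmb is no count for its list. That list of 14 cytotoxic genes summed to 3.02, 9.6 and 5.37 TPM with placebo and 7.2, 15.6, 11.9 and 14.1 TPM with anti-PD1. These groups overlapped, and its other tested members, Nkg7, Ccl5, Eomes and Ctsw, overlapped too and did not pass. Ifng, the gene of interferon gamma, had 0, 0 and 2 reads against 0, 21, 0 and 9 and was not tested. Gzmb was at 0.0 to 0.116 TPM with vorinostat and 0.604 to 1.98 with the combination, values set side by side without a test.

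Antibody genes were present in every anti-PD1 library at higher summed levels than in any placebo library. The 190 variable, diversity and joining segments of immunoglobulin genes summed to 68.9, 313 and 92.1 TPM in placebo libraries 1 to 3 and to 944, 2032, 700 and 527 TPM in anti-PD1 libraries 1 to 4. Of 112 segments tested 14 rose and 0 fell, but many reached the filter only with the help of libraries given the antibody, so this count supports nothing on its own. The number of segments with any TPM was 14, 47 and 62 with placebo and 96, 147, 89 and 80 with anti-PD1. Igkc, the kappa light chain constant gene, had 16.8, 178 and 37.1 TPM against 435, 908, 193 and 289 TPM. Placebo library 2 lay just under anti-PD1 library 3, and the change of 2.97 did not pass in limma (SE 1.07, adjusted p = 0.0877). Iglc2, a lambda constant gene, rose by 1.12 (SE 0.27, adjusted p = 0.0407 in limma) from a range of 0.0951 to 0.339 TPM to one of 0.902 to 3.06. Igkc and the erythrocyte genes were both high in anti-PD1 libraries 1 and 2, and the part of blood in the antibody gene levels was not tested. Cxcl13, a chemokine that attracts B cells, had 0.677, 0.503 and 0.278 TPM with placebo and 2.39, 2.06, 0.929 and 1.88 TPM with anti-PD1, without overlap, and rose by 0.90 (SE 0.21, adjusted p = 0.0377 in limma). It was the 1 of 21 chemokine genes that passed (4.76%, against 1.77% of all genes that rose). Cxcl13 and Iglc2 reached 1 TPM only in libraries given the antibody, alone or combined, and so entered the test through them.

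**Figure D2:**
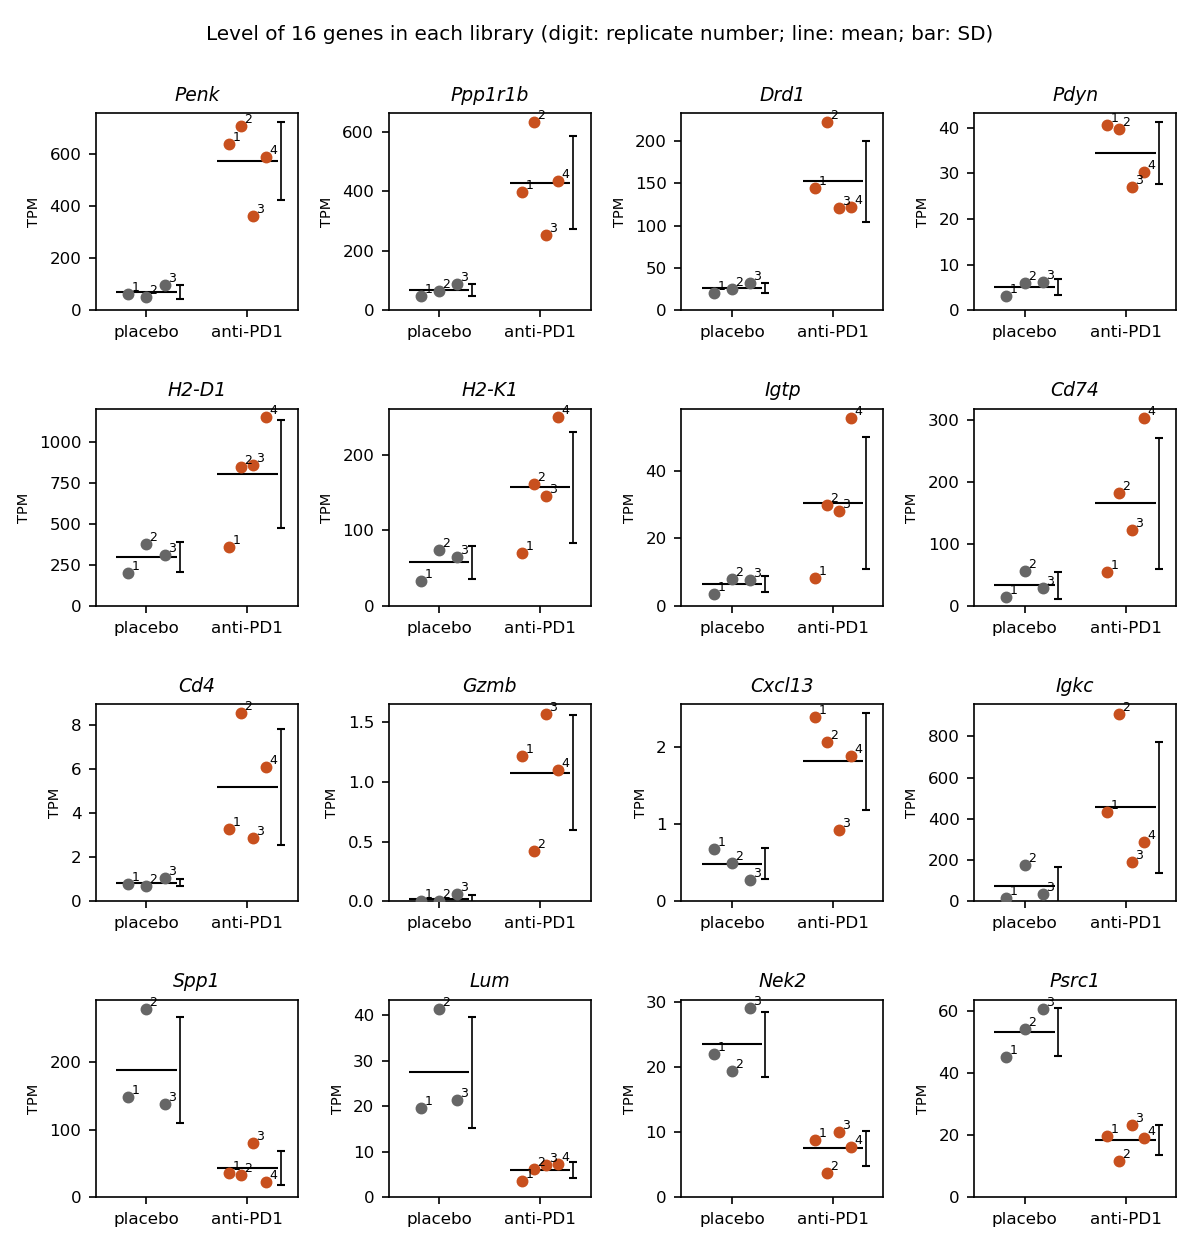
TPM of 16 genes in each library (grey, 3 placebo; orange, 4 anti-PD1; digits are replicate numbers, lines means, bars SD; each vertical axis starts at 0 and has its own scale). In the striatal genes Penk, Ppp1r1b, Drd1 and Pdyn all anti-PD1 libraries lay above placebo, whereas in H2-D1, H2-K1 and Cd74 anti-PD1 library 1 lay within the placebo range.

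The class I and T cell differences were also fitted beside the mean log2(TPM + 1) of neuron or mitosis genes. The pan-neuronal mean was 4.83 to 5.33 with placebo and 5.34 to 6.2 with anti-PD1. The mitosis mean was 4.38 to 4.98 and 2.39 to 3.72. Both covariates thus separate the groups and can take up the treatment difference itself. Smaller changes and fewer calls with them therefore decide nothing. With the mean of the 23 pan-neuronal genes as a covariate the class I median was 0.77 and 0 members passed, and H2-Q7 kept a change of 2.02 (adjusted p = 0.148 in limma). The median of the 7 tested T cell markers was 0.49 without a covariate, 0.21 with the pan-neuronal mean and 0.15 with the mitosis mean, and 0 passed with either. Of these markers Cd8a and Lat met the filter through libraries given the antibody, so this median supports nothing on its own. In a fit of the 7 compared libraries alone 0 class I genes and 0 T cell markers passed, with unchanged medians. Without anti-PD1 library 2 or 4, or without any 1 placebo library, 0 class I genes passed, with medians of 0.73 to 1.10. Without anti-PD1 library 1, 6 passed and the median was 1.16.

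Of 23 tested genes of striatal projection neurons 15 rose (65.2%, against 1.77% of all genes), 0 fell, the median change was 1.77, and all 23 had every anti-PD1 library above every placebo library, a pattern seen in 8.26% of all genes. The summed level of the list was 409, 405 and 488 TPM in placebo libraries 1 to 3 and 2030, 3585, 1695 and 2066 TPM in anti-PD1 libraries 1 to 4. Penk (chromosome 4, 4133531 to 4138819) had 63.0, 50 and 99.5 TPM with placebo and 638, 708, 364 and 588 TPM with anti-PD1. The lowest treated library stood more than 3 times above the highest placebo library, and Penk rose by 3.02 (SE 0.40, adjusted p = 0.0104 in limma), the largest rise by the naming rule. Drd2, Adora2a and Gpr6, which like Penk mark the indirect pathway, differed by 1.52, 2.11 and 2.58 and missed the threshold (adjusted p = 0.0553, 0.0583 and 0.0553 in limma).

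Direct pathway genes rose as well. Drd1, the D1 receptor gene, had 20.7, 25.2 and 32.4 TPM with placebo and 144, 222, 121 and 122 TPM with anti-PD1. Pdyn, the dynorphin precursor gene, had 3.18, 6 and 6.18 TPM against 40.6, 39.7, 26.9 and 30.3 TPM, and Tac1, the substance P precursor gene, 11.2, 6.37 and 11.4 against 70.5, 102, 50.4 and 39.7 TPM. None of these groups overlapped, with rises of 2.48 (SE 0.45), 2.55 (SE 0.40) and 2.59 (SE 0.54) and adjusted p = 0.0206, 0.0151 and 0.031 in limma. Ppp1r1b, which encodes the dopamine signalling phosphoprotein DARPP-32 of both pathways, had 49.8, 66.2 and 90.2 TPM with placebo and 397, 633, 253 and 435 TPM with anti-PD1. It rose by 2.59 (SE 0.49, adjusted p = 0.0239 in limma), and anti-PD1 library 3 was the lowest of the treated 4. Signal transduction genes of these neurons rose too, namely the adenylyl cyclase gene Adcy5 (1.56), the phosphodiesterase genes Pde1b (1.77) and Pde10a (1.35), Rgs9 (1.5), which speeds the end of G protein signals, and the G protein subunit gene Gng7 (2.23). So did the transcription factor genes Bcl11b (1.34), Foxp1 (0.64) and Meis2 (0.62).

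Further neuron genes outside the list rose. Arpp21, a phosphoprotein gene regulated by cyclic AMP, had 6.28, 6.99 and 6.52 TPM with placebo and 30.1, 41.6, 22.1 and 35.1 TPM with anti-PD1. The placebo libraries lay within 1 TPM of each other and all treated libraries far above them, and Arpp21 rose by 2.10 (SE 0.33, adjusted p = 0.0147 in limma). Nts, the neurotensin gene, rose by 2.79 (SE 0.60, adjusted p = 0.0326 in limma) from 2.64, 1.66 and 3.71 TPM to 46.7, 24.1, 16.9 and 16.5 TPM. Slc35d3, a solute carrier gene of direct pathway neurons, rose by 2.56 from 2.76 to 3.88 TPM with placebo to 18.4 to 42.1 with anti-PD1. Rem2, an activity-regulated GTPase gene, rose by 2.35 and Kcnj4, an inward rectifier potassium channel gene, by 1.98.

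Of 19 tested genes of GABA synthesis and interneurons 5 rose (26.3%, against 1.77% of all genes) and 0 fell, with a median of 1.29. Gad1, which makes GABA, had 27.8, 19.6 and 23 TPM with placebo and 73.9, 85.2, 53.3 and 55.4 TPM with anti-PD1. The groups did not overlap and Gad1 rose by 1.46 (SE 0.29, adjusted p = 0.0267 in limma). Sst, the somatostatin gene of a class of interneurons, had 151, 137 and 161 TPM against 397, 548, 330 and 387 TPM and rose by 1.45 (SE 0.34, adjusted p = 0.0373 in limma). Dlx2 and Dlx5, homeobox genes of GABA neuron development, rose by 1.47 and 2.00, and Gad2 by 1.79. The interneuron genes Pvalb and Calb2 had changes of 0.51 and 0.09.

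Of 19 tested cortical excitatory genes 0 passed, with a median of 0.68. In 4 of them every anti-PD1 library lay above every placebo library, a pattern seen in 8.26% of all genes. Camk2a, the kinase gene of excitatory forebrain neurons, was at 79.6, 105 and 60.4 TPM with placebo and 184, 335, 106 and 226 TPM with anti-PD1. Library 3 of the treated group thus stood just above the highest placebo library, and the change of 1.29 did not pass in limma (SE 0.52, adjusted p = 0.107). All 23 pan-neuronal genes had a change above 0, with a median of 0.75. Of them 2 rose (8.7%, against 1.77% of all genes), the glutamate receptor gene Grin1 (0.99) and the kinase gene Camk2b (0.37). Vgf, a neuropeptide precursor gene induced by activity, rose by 1.77 (SE 0.33, adjusted p = 0.0234 in limma), from 38.5, 41.7 and 53.9 TPM to 205, 96.8, 152 and 184 TPM. Egr4, an immediate early transcription factor gene, had 1.32, 3.02 and 1.24 TPM against 15.4, 5.44, 14.1 and 25.2 TPM. It rose by 2.38 (SE 0.56, adjusted p = 0.0377 in limma), the 1 of 17 immediate early genes that passed (5.88%). Anti-PD1 library 2, which had the highest striatal sum, had the lowest Egr4 and Vgf of the treated 4.

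With the pan-neuronal mean as a covariate the striatal median was 1.09 and 1 gene passed, Penk, at 2.59 (adjusted p = 0.0446 in limma); with the mitosis mean it was 0.93 and 0 passed. In the fit of the 7 compared libraries alone 16 striatal genes passed. The striatal median stayed between 1.39 (without anti-PD1 library 2) and 1.89 (without placebo library 1) as single libraries were left out, while the number of its genes that passed went from 0 without placebo library 1 or 2 to 22 without anti-PD1 library 3. The levels with the other treatments are given without a test. Penk was at 125 to 237 TPM with vorinostat and 88.8 to 299 with the combination. All but the lowest combination library lay above the highest placebo library, and all lay below the lowest anti-PD1 library. The striatal list summed to 1320, 670, 610 and 899 TPM in vorinostat libraries 1 to 4. In combination libraries 1 to 4 it summed to 1413, 1646, 809 and 343 TPM. Combination library 2 came close to the lowest anti-PD1 library, at 1695 TPM, and combination library 4 lay below every placebo library.

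**Figure D3:**
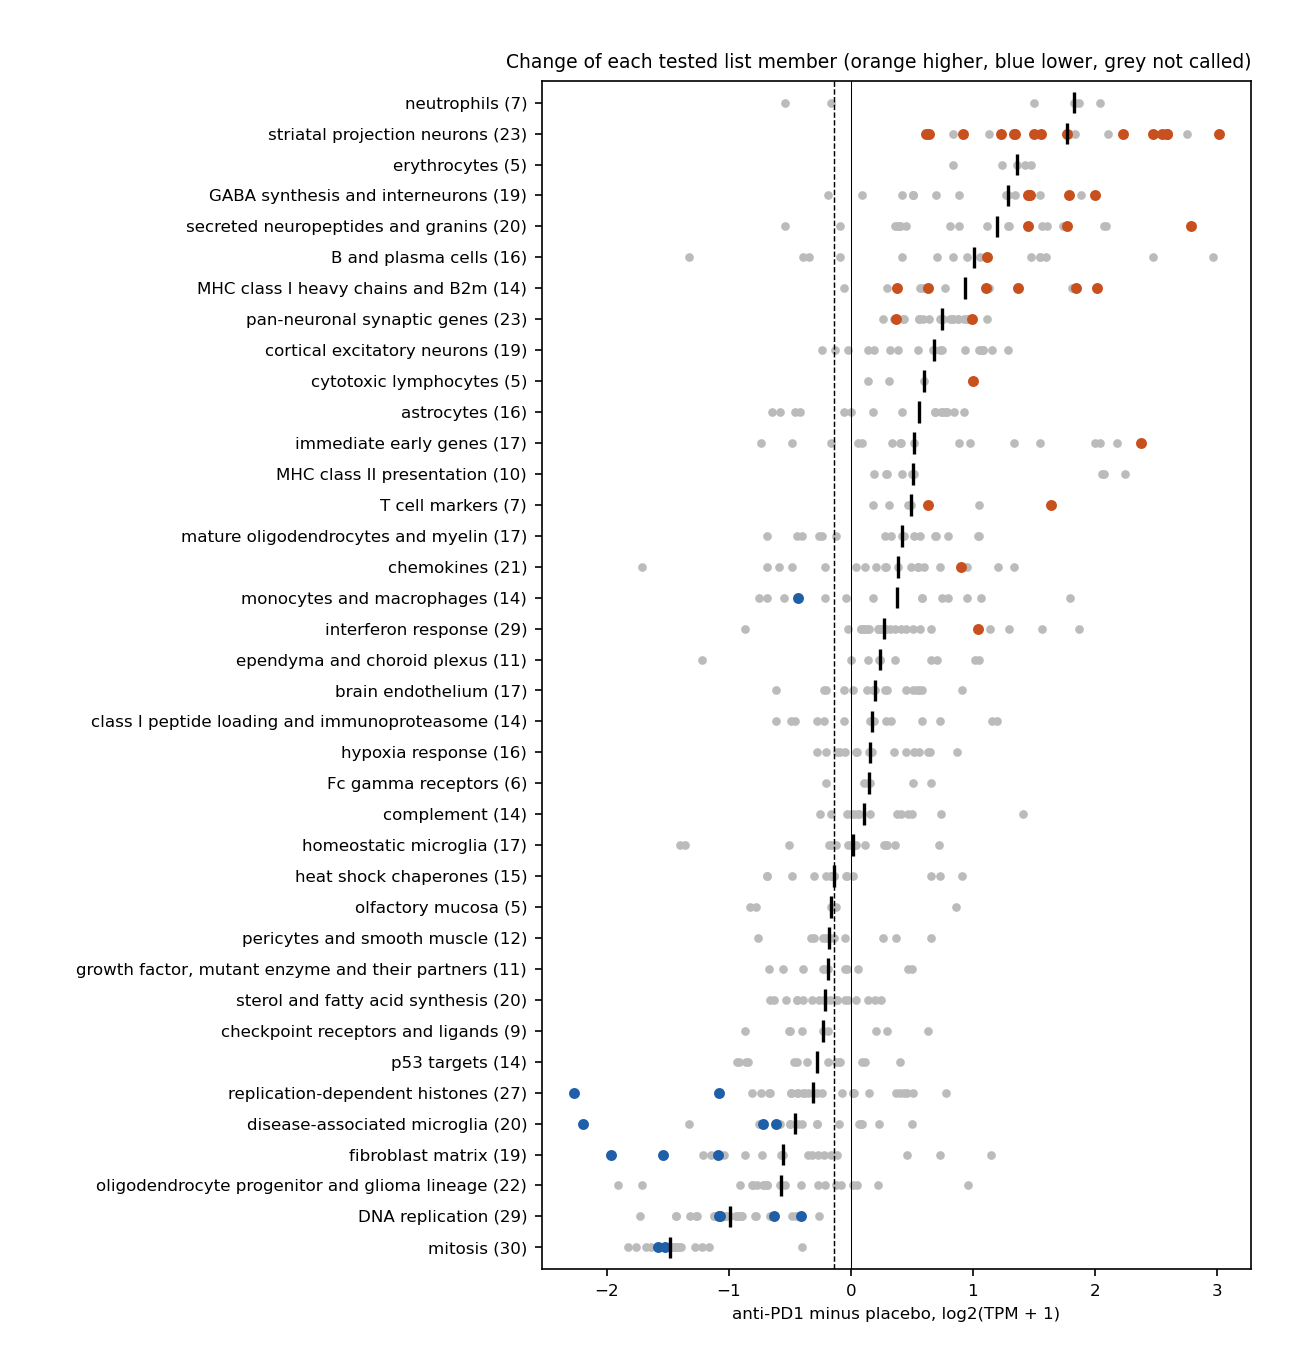
Change with anti-PD1 against placebo, as a difference of mean log2(TPM + 1), of each tested member of 38 gene lists (number tested in brackets); orange and blue points passed in limma, black bars are list medians, the dashed line is the median of all genes (-0.14). Striatal genes lie at 0.62 to 3.02 and mitosis genes at -1.83 to -0.40.

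Genes of dividing cells lay lower with anti-PD1, most of them short of the test. The mitosis list summed to 1017, 854 and 1305 TPM in placebo libraries 1 to 3 and to 411, 175, 517 and 368 TPM in anti-PD1 libraries 1 to 4. With vorinostat it summed to 516 to 1424 TPM and with the combination to 154 to 1075, values set beside these without a test. All 30 members had a change below 0 (median -1.48), 29 had every anti-PD1 library below every placebo library, a pattern of 20.5% of all genes, and 2 of the 30 fell (3.52% of all genes did). Nek2, a centrosome kinase gene (chromosome 1, 191821444 to 191833050), had 22, 19.3 and 29.0 TPM with placebo and 8.76, 3.63, 9.91 and 7.62 TPM with anti-PD1. Psrc1, a microtubule-binding protein gene, had 45.1, 54.2 and 60.7 TPM against 19.6, 11.5, 23.2 and 19.2 TPM. The treated libraries lay below placebo in both, library 2 lowest, and the genes fell by 1.58 (SE 0.40, adjusted p = 0.0456) and 1.52 (SE 0.34, adjusted p = 0.035) in limma. Mki67, the proliferation marker gene, had 96.7, 67.6 and 113 TPM with placebo and 36.9, 13.3, 42.3 and 30.7 TPM with anti-PD1. Its groups did not overlap either, but the difference of -1.64 missed the threshold (SE 0.66, adjusted p = 0.107 in limma).

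Further cell division genes outside the list fell. These were Plk4, the kinase gene that starts centriole copying (-1.2), Gas2l3, a cytoskeletal gene of late division (-1.17), and the kinetochore genes Pmf1 (-1.13) and Cenpl (-1.12). In the DNA replication list 4 of 29 fell (13.8%, against 3.52% of all genes) and all 29 had a change below 0, with a median of -0.99. In the fit of the 7 compared libraries alone 1 mitosis gene and 0 replication genes passed. Prim1, the primase subunit gene, had 16.9, 16.0 and 15.5 TPM with placebo and 8.39, 4.34, 9.63 and 7.11 TPM with anti-PD1, without overlap, and fell by 1.08 (SE 0.27, adjusted p = 0.0423 in limma). The clamp loader gene Rfc3 fell by 1.07 and the cyclin genes Ccne1 and Ccne2 by 0.41 and 0.63. Among 27 tested histone genes expressed in S phase 2 fell (7.41%), H3c14 (-2.27) and H1f5 (-1.08), from a list whose median was -0.31. H3c14 was at 24.7, 23.8 and 49.8 TPM with placebo and at 13.7, 0.709, 6.57 and 8.91 TPM with anti-PD1, and library 2 alone was below 1 TPM.

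Glioma lineage genes showed no call among 22 tested, with a median of -0.57. Nes, the gene of the progenitor filament nestin, had 181, 359 and 380 TPM with placebo and 76.5, 29.6, 217 and 70.4 TPM with anti-PD1. Vim, another filament gene of glial progenitors, had 618, 1114 and 1020 against 271, 121, 639 and 255 TPM. In each gene anti-PD1 library 3 lay within the placebo range and the other 3 below it, and the changes of -1.91 (adjusted p = 0.111) and -1.71 (adjusted p = 0.0957) did not pass in limma. Neu4, a sialidase gene of the oligodendrocyte lineage, went the other way, with 29.8, 18 and 29.8 TPM against 95.0, 36.5, 24.4 and 72.6 TPM, a change of 0.96 that did not pass. Idh1, whose human counterpart is the gene mutated in many low-grade gliomas, had 38.1, 34.1 and 41.6 TPM against 27.6, 20.4, 31.1 and 23.6 TPM, and the difference of -0.56 missed the threshold (SE 0.17, adjusted p = 0.0622 in limma). Whether reads of the delivered IDH and PDGFB entered the mouse Idh1 and Pdgfb values is not stated. With the mitosis mean as a covariate the glioma lineage median was 0.53, and with the pan-neuronal mean 0.27. Both covariates separate the groups, so this turn of sign decides nothing about the lineage genes. Leaving out anti-PD1 library 2, the library with the fewest lineage transcripts, moved the lineage median to -0.27 and the mitosis median to -1.19.

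Extracellular matrix genes fell as well. Lum, which encodes the collagen-binding proteoglycan lumican (chromosome 10, 97565128 to 97572703), had 19.5, 41.5 and 21.3 TPM with placebo and 3.51, 6.18, 7.14 and 7.33 TPM with anti-PD1. Col3a1, a fibrillar collagen gene, had 7.18, 26.5 and 13.1 TPM against 2.99, 3.89, 5.30 and 4.35 TPM. Placebo library 2 was the highest in both, and no treated library reached the placebo range. Lum fell by 1.97 (SE 0.34, adjusted p = 0.0206) and Col3a1 by 1.54 (SE 0.40, adjusted p = 0.0461) in limma, and Dcn, the decorin gene, by 1.09 (SE 0.25, adjusted p = 0.0354). These were 3 of 19 fibroblast matrix genes (15.8%, against 3.52% of all genes), and the list median was -0.56. No matrix gene passed without placebo library 1, 2 or 3 or without anti-PD1 library 2, with medians of -0.79, -0.34, -0.50 and -0.44, and 1 passed with the 7 compared libraries alone. For Col6a1, a collagen gene of the same list, the difference was 1.15 and missed the threshold (adjusted p = 0.0553 in limma).

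Of 20 microglial genes of the disease-associated state 3 fell (15%, against 3.52% of all genes), with a median of -0.46, while 0 of 17 homeostatic genes passed, with a median of 0.02. No gene of the disease-associated list passed with the 7 compared libraries alone, or without any 1 placebo or anti-PD1 library other than anti-PD1 library 3, when 8 fell. Spp1 had 148, 279 and 138 TPM with placebo and 34.9, 33.3, 80.1 and 22.3 TPM with anti-PD1, without overlap, and fell by 2.20 (SE 0.47, adjusted p = 0.0326 in limma). With vorinostat it was at 80.9 to 259 TPM and with the combination at 139 to 336, values set beside these without a test. Ctsd, a lysosomal protease gene, had 592, 780 and 699 TPM against 402, 317, 482 and 488 TPM, and Fabp5, a fatty acid carrier gene, 161, 166 and 155 against 99.3, 90.5, 117 and 118 TPM. They fell by 0.72 (adjusted p = 0.0456) and 0.61 (adjusted p = 0.0401) in limma. The summed level of the 20 genes, most of it Apoe, overlapped between the groups, at 4858 to 5883 TPM with placebo and 4851 to 5559 with anti-PD1. Other falls were Gpx3, a secreted glutathione peroxidase gene, from 62.4 to 69.0 TPM with placebo to 16.0 to 38.4 with anti-PD1 (-1.22), and Gpr161, a receptor gene of the primary cilium (-1.44).

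**Figure D4:**
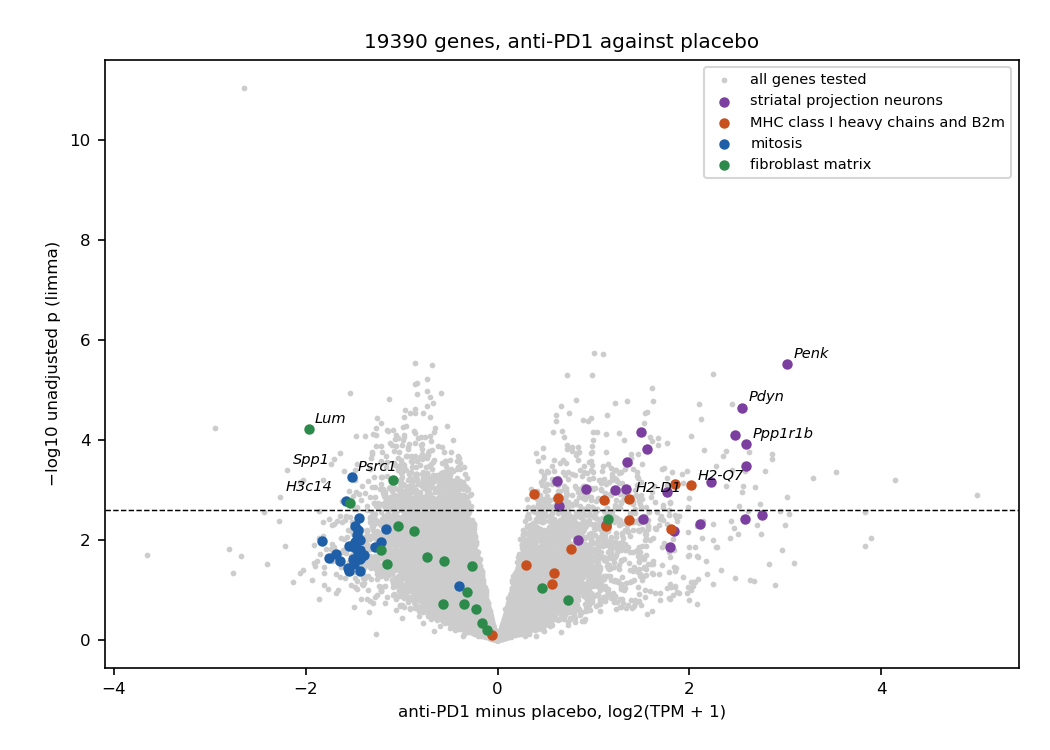
Each of 19390 genes by its change (horizontal, difference of mean log2(TPM + 1)) and −log10 of limma's unadjusted p (vertical); colours mark 4 lists and the dashed line the largest p that passed. Penk, at 3.02, stands apart among coloured genes. The 28 mitosis genes under the line have limma's unadjusted p from 0.00364 (Nuf2) to 0.0829 (Anln).

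Each library was left out in turn. Without anti-PD1 library 1, 2 or 4 the count of calls was 155, 72 or 86, and without a vorinostat or combination library it was 316 to 1940. Of the 56 called genes among those named, 0 passed without placebo library 1, 0 without library 2 and 1, Penk, without library 3, and 55 did so without anti-PD1 library 3. All that could be tested kept their direction in each of these fits. Where the groups do not overlap, leaving out 1 library cannot turn a direction, so for such genes this decides nothing. In every fit without a placebo library that group had 2 libraries. With the pan-neuronal mean as a covariate 34 genes passed, and of the 56 Penk, Arpp21 and Fibin, a secreted protein gene that fell by 1.29, did so. With the mitosis mean as a covariate 4 genes passed, none of them among the 56.

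**Figure D5:**
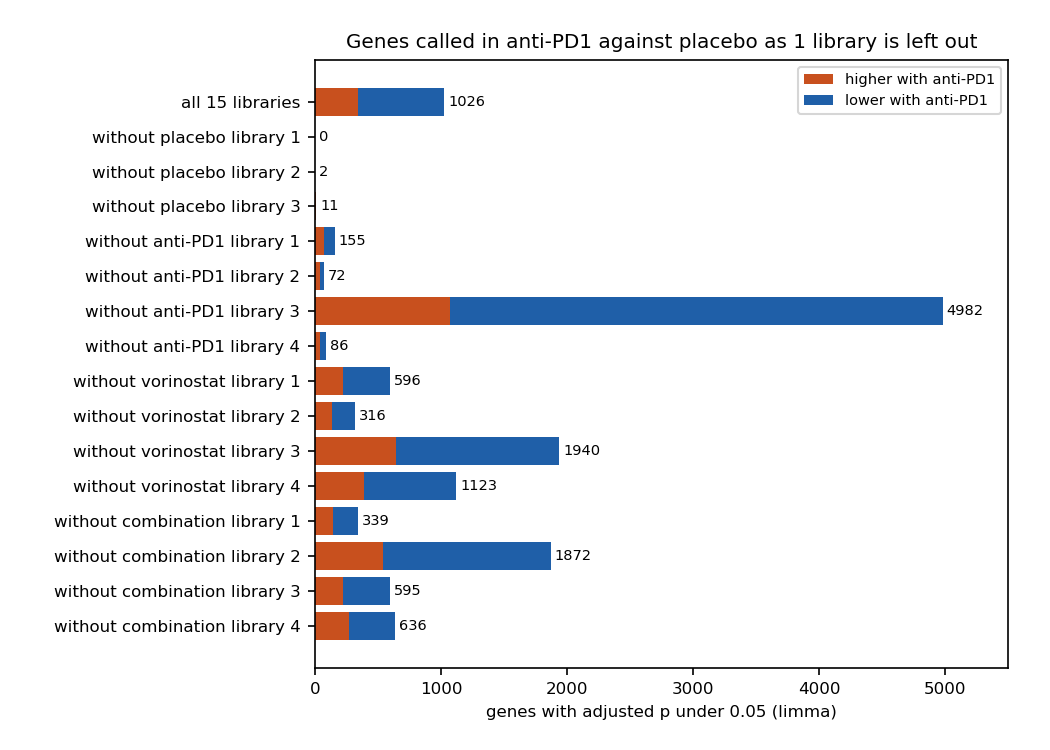
Number of genes with an adjusted p under 0.05 in limma (horizontal; orange higher, blue lower with anti-PD1) in the fit of all 15 libraries and as each is left out. The count was 1026 in all, 0 to 11 without a placebo library and 4982 without anti-PD1 library 3.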

How the data were processed

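Total RNA of cut tumour pieces was sequenced, per the labels' protocols, with a library kit that does not mark strand. FastQC, HISAT2, StringTie and DESeq2 and build mm10 are named in the submitters' processing notes, with no versions. The authors deposited TPM in 1 table of 38172 symbols, and the sources used here do not say what "adj" in its name means. For 99.67% of symbols whole reads could be recovered (tolerance 0.0001 reads), 94.81% of them with the gene span, introns included, as length, so genes with long introns have lower TPM. Genes of chromosomes X, Y and M were not analysed here. Reads of a gene and its antisense partner cannot be told apart. Coordinates are those of GENCODE vM21, in which 36472 symbols matched once.

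The 19390 genes that reached 1 TPM in 3 or more of 15 libraries were tested on log2(TPM + 1) with limma 3.58.1 in R 4.3.3, with 1 mean per group over all 15 libraries, a trended eBayes and Benjamini-Hochberg adjustment at 0.05. The test was checked on simulated data in which genes varied independently, so that check does not cover library differences shared by many genes. A change is anti-PD1 minus placebo, and this scale understates changes of low genes. Named were the 15 largest changes in each direction among protein-coding genes that passed, had a mean of at least 5 TPM and did not overlap, up to 4 members of smallest p per list, and 19 genes by name. H2-T23 and any other list member outside this rule were chosen after their values were seen. Members and lists were chosen with earlier results of these data known. Alternatives were other scalings, filters and pseudocounts, voom on recovered reads, the replicate number as a block, 2 covariates, and each library left out. Some results are not reported here.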

Additional observations from a re-analysis of the deposited data

Results flagged for a closer look

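Of 84 groups of 4 anti-PD1 libraries examined, 5 held a library far from the other 3 by Dixon's criterion, and chance alone flags about 5% of such groups. Gng7, a G protein subunit gene of striatal neurons, was highest in anti-PD1 library 2, at 80.8 TPM. The striatal list mean was highest in that library too, at 5.72 on the log2(TPM + 1) scale. Library 2 was the lowest for the mean of the growth factor and mutant enzyme list, at 3.47, and for that of the replication-dependent histones, at 2.01. The complement list mean was highest in anti-PD1 library 4, at 4.17.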

How the results depend on the processing

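The 1026 calls (344 higher, 682 lower) became 183 (121 and 62) with the 7 compared libraries alone, 300 (110 and 190) with no filter, 841 (522 and 319) with median-of-ratios scaling and 606 (389 and 217) with voom. They became 34 (13 and 21) with the pan-neuronal mean and 4 (1 and 3) with the mitosis mean as a covariate. Both covariates differ between the groups without overlap. Leaving out 1 library gave 0 to 4982 calls, 0 to 1070 higher and 0 to 3912 lower. The median of all genes, -0.14, turned to 0.01 with median-of-ratios scaling and with voom and was -0.01 without the filter. The cause of these shifts was not tested. With a mean of at least 5 TPM the T cell and cytotoxic lists had no members left to give a median. Placebo and anti-PD1 libraries of the same number had correlations of their deviations of 0.12, 0.05 and 0.30. The labels do not say what the numbers mean, and so few pairs cannot decide whether such libraries share more than a number. With the replicate block 2621 genes passed (803 and 1818), 1019 of them among the 1026, and 1 of 3 placebo libraries correlated best with its own number. All 56 called genes among those named kept their direction wherever they could be tested. In the fits with 1 library left out this was fixed in advance for genes whose groups do not overlap. edgeR's quasi-likelihood test was not run, since the table holds TPM. Depth limits the T cell and cytotoxic genes, several of which rest on under 100 reads.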

Other observations

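Blood and vessel genes gave no call. The alpha globin gene Hba-a1 stood at 2554, 229 and 1525 TPM in placebo libraries 1 to 3 and at 12558, 4924, 701 and 862 TPM in anti-PD1 libraries 1 to 4, and the difference of 1.36 missed the threshold in limma (SE 1.01, adjusted p = 0.338). S100a8, a calcium-binding protein gene of neutrophils, was at 2.11, 1.02 and 1.18 TPM against 73.4, 14.8, 1.77 and 1.91 TPM, so libraries 1 and 2 alone were far above placebo. Of 17 brain endothelium genes 0 passed, with a median of 0.20. Ly6c1, an endothelial surface protein gene, had 59.0, 41.2 and 29.6 TPM against 98.9, 102, 56.4 and 69.3 TPM, a change of 0.91 that did not pass (adjusted p = 0.0876 in limma).

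Of 16 tested astrocyte genes 0 passed, with a median of 0.56. The water channel gene Aqp4 had 194, 144 and 116 TPM with placebo and 109, 78.2, 116 and 93.8 TPM with anti-PD1, while the glutamate transporter gene Slc1a2 had 115, 88.6 and 85.5 against 175, 209, 107 and 168 TPM. Their changes of -0.58 and 0.74 did not pass in limma (adjusted p = 0.0976 and 0.09). Among the mitochondrial chaperone genes, Hspd1 had 312, 301 and 312 TPM against 184, 140, 277 and 184 TPM, and the difference of -0.69 missed the threshold (SE 0.21, adjusted p = 0.0588 in limma).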
